A study of Mus musculus with 10 samples.

Results

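The proteasome subunit genes were taken as the symbols in the count tables that begin with Psma to Psmg followed by a digit, without pseudogenes and without the interacting protein Psmc3ip. The rule found 49 genes among 32531 listed symbols. By name they fall into 19 core genes (Psma and Psmb), 17 cap genes (Psmc and Psmd), 6 activator or inhibitor genes (Psme and Psmf1) and 7 assembly genes (Psmg1 to Psmg4 with Psmd5, Psmd9 and Psmd10). Their levels were compared between ribosome-bound RNA of striatal cholinergic neurons and RNA of the whole striatum, and between treatment groups.

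All RNA came from the whole striatum of adult Chat-TRAP mice (DW167), whose ribosomal protein Rpl10a carries EGFP. The line is named for Chat, the enzyme that makes acetylcholine in cholinergic neurons. Tagged polysomes were immunopurified with antibodies against EGFP from animals that self-administered saline, animals that self-administered cocaine and yoked controls, with 3 libraries per group. For 1 further library, the input, total RNA of saline self-administration animals was sequenced without immunopurification. The labels state neither what the yoked animals received nor whether a library pools animals, so the p values below measure the spread between these libraries, which may be technical.

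The proteasome degrades proteins tagged with ubiquitin. Its core is a barrel of outer alpha rings (Psma subunits) and inner beta rings (Psmb subunits), of which Psmb5, Psmb6 and Psmb7 cut the substrate. The cap binds tagged proteins, removes the ubiquitin and feeds the unfolded chain into the core by means of the Psmc ATPases. Interferon-inducible counterparts of the cutting subunits, Psmb8, Psmb9 and Psmb10, form the immunoproteasome, and the activators Psme1 and Psme2 can replace the cap. Neurons depend on the proteasome for the turnover of synaptic proteins.

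Reads assigned to genes numbered 24526800 to 75220900 (rounded) in the immunopurified libraries, most in cocaine library 2, and 40912200 in the input. Reads that aligned to more than 1 place, which were given to no gene, made up 36.3% to 57.1% of all reads in the immunopurified libraries and 35.4% in the input. Chat measured 477, 601 and 573 CPM (counts scaled to 1000000 gene counts per library) in saline libraries 1 to 3 and 10.1 CPM in the input. All 9 cholinergic markers were at least 2-fold above the input in the 3 saline libraries. At least 2-fold below it in all 3 were 8 of 9 spiny neuron markers (Drd2, which cholinergic neurons also carry, was above), 7 of 7 astrocyte, 7 of 7 oligodendrocyte, 7 of 8 microglia and 5 of 7 endothelial markers. The saline libraries were sequenced in lane 3, the cocaine and yoked libraries in lane 4 and the input in lane 5, so in any comparison that involves saline or the input, lane and group cannot be told apart.

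Most proteasome genes were higher in cholinergic ribosome-bound RNA than in whole striatal RNA, and the core genes lay further above the input than the cap genes. Of the 49 genes, 47 had at least 20 counts in the input or in the mean saline library. Of these, 43 were above the input in all 3 saline libraries, where 35.8% of all 15888 genes measured were, and 1 (Psme4) was below it in all 3, where 44.9% of all genes were. In all 9 immunopurified libraries 41 of the 47 were above the input, beside 27.9% of all genes. Their median log2 ratio of CPM was 0.85 ± 0.074 (SD of the library medians, n = 3), 1.80-fold, beside −0.20 ± 0.023 over all genes measured. Over the 12676 genes with at least 100 counts, the median was −0.015, and 41.2% were above the input in all 3 saline libraries. Summed over the 49 genes, the level was 2066 CPM in the input and 3514, 3857 and 3432 CPM in saline libraries 1 to 3. In the other 6 immunopurified libraries the sum lay between 3219 and 3742 CPM, so all 9 lay above the input. The input has no replicate, so these ratios are descriptions with no p value. In bulk samples, fewer cells of a type and less RNA per cell cannot be told apart. The input is total RNA and the other libraries ribosome-bound RNA, so cell type and RNA fraction cannot be told apart either. Reads in no gene made up 15.25% of the input and 7.04% to 11.2% of the 9 immunopurified libraries. Reads in more than 1 gene model (ambiguous) made up 4.49% and 0.976% to 1.84%.

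By class, the median log2 ratio was 1.11 ± 0.048 for 17 core genes (2.16-fold) and 0.42 ± 0.069 for 17 cap genes (1.34-fold). It was 1.10 ± 0.14 for 6 activators and inhibitors and 0.83 ± 0.20 for 7 assembly genes (SD of the library medians, n = 3). Each median is over the genes' mean ratios, so it need not lie among the 3 library medians. For the core genes the library medians were 1.16, 1.24 and 1.16. None of the 17 cap genes reached the median of the core genes, and 1 of the 17 core genes, Psmb9, lay below the median of the cap genes. The classes overlapped, with 6 of the 17 core genes below the highest cap gene, Psmc5. At least 2-fold above the input in all 3 libraries were 11 of the 47 genes, beside 12.2% of all genes measured and 13.5% of those with at least 100 counts. The 11 were made up of 8 core genes, 3 activators and no cap or assembly gene. The count was 19 when each library was centred on the median of all genes, and 4 when all 9 immunopurified libraries had to pass. Centring raised the ratio of every gene, and the share of all genes was not counted under either setting. None of the 47 genes was at least 2-fold below the input in all 3 saline libraries, where 23.1% of all genes measured were.

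**Figure D1:**
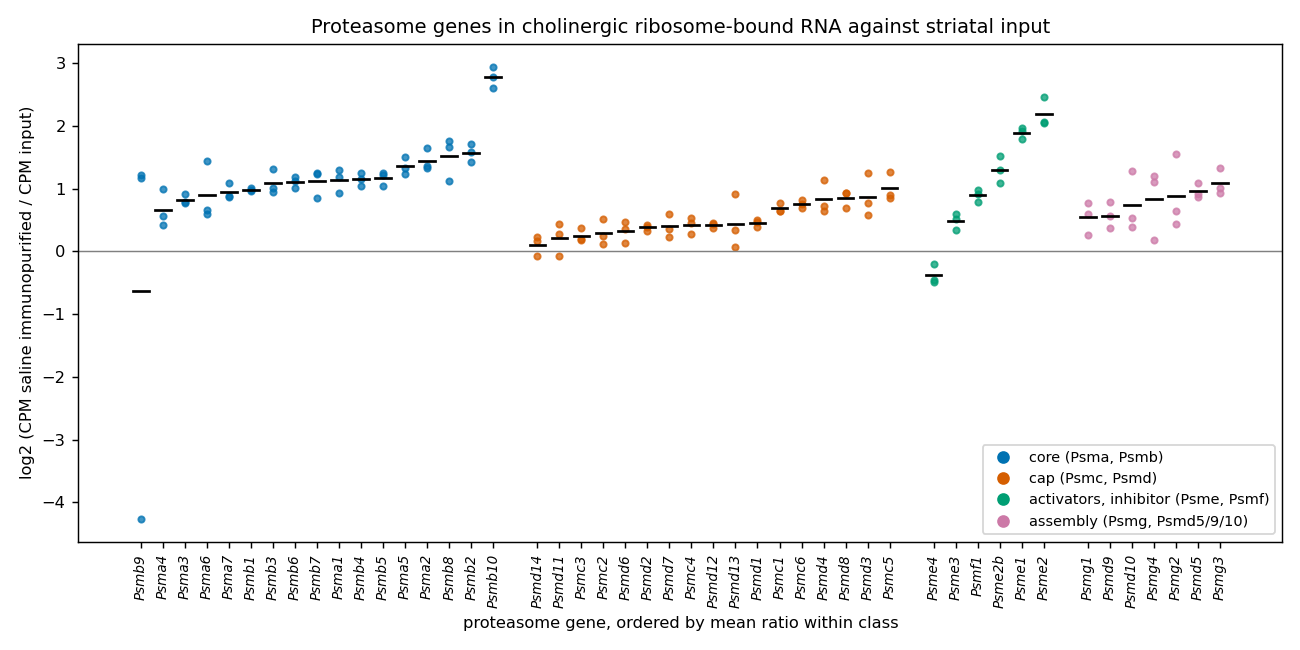
Log2 ratio of CPM in the 3 saline immunopurified libraries (points) over CPM in the 1 input library for the 47 measured proteasome genes, with the mean of the 3 as a bar, grouped by class and ordered by mean; the grey line marks no difference. Core genes centre on a median of 1.11 and cap genes on 0.42, with Psmb10, Psme2 and Psme1 highest, Psme4 below the line in all 3 libraries and 1 library of Psmb9 far below its other points.

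In the alpha ring, the outer gate of the core, all 7 measured genes were above the input in the 3 saline libraries. Psma2 measured 64.1 CPM in the input and 165, 200.2 and 160.5 CPM in saline libraries 1 to 3 (log2 ratio 1.44 ± 0.17, SD, n = 3), 2.72-fold. Psma5 measured 17.6 CPM in the input and 44.3, 49.6 and 41.5 CPM in the saline libraries, 2.56-fold, and Psma1 33.3 CPM and 75.2, 81.9 and 63.2 CPM, 2.19-fold. In these 3 genes every saline library lay above the input by more than the range of the saline libraries. The lowest ratio in the ring belonged to Psma4, with 39.6 CPM in the input and 58.8, 78.6 and 52.9 CPM in the saline libraries, 1.58-fold. Psma3 measured 5.01 CPM and between 8.56 and 9.43 CPM, 1.77-fold. Psma6 had 68.9 CPM in the input and 105, 187 and 108 CPM in the saline libraries, so saline library 2 stood well above the other two. The testis-type alpha subunit Psma8, counterpart of Psma7, had 16 counts in the input and 0, 1 and 0 in the saline libraries, an input level 38.8 times that of the 3 summed (95% counting interval 6.02 to 1626), and was not among the 47. Psma7 itself measured 80.6 CPM and 148, 147 and 170.4 CPM, 1.92-fold.

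The structural beta subunits were similarly placed. Psmb2 measured 59.1 CPM in the input and 178, 194 and 158 CPM in saline libraries 1 to 3 (log2 ratio 1.57 ± 0.15, SD, n = 3), 2.98-fold and the highest of this group. Psmb4 had 75.2 CPM and 155, 179 and 168 CPM, 2.22-fold, and Psmb3 10.8 CPM and 20.7, 26.7 and 21.7 CPM, 2.13-fold. Psmb1 had the lowest ratio, 57.6 CPM in the input and 112, 116 and 113 CPM in the saline libraries (1.97-fold). Its log2 ratio had an SD of 0.026, and its coefficient of variation over all 9 immunopurified libraries was 7.30%, beside a median of 12.9% over the 47 genes.

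The standard cutting subunits were about as far above the input as the rest of the core. Psmb5, the chymotrypsin-like subunit, measured 15.9 CPM in the input and 32.8, 37.7 and 37.1 CPM in the saline libraries, 2.25-fold. Psmb6, the caspase-like subunit, had 40.7 CPM and 92.1, 81.7 and 88.4 CPM, 2.15-fold, and Psmb7, the trypsin-like subunit, 73.1 CPM and 172, 132 and 174 CPM, 2.16-fold.

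Psmb10, the inducible counterpart of Psmb7 (chromosome 8, 105935728 to 105938392, mm10), had the highest ratio of all proteasome genes. It measured 6.97 CPM in the input, from 285 counts, and 47.6, 42.2 and 53.5 CPM in saline libraries 1 to 3 (log2 ratio 2.77 ± 0.17, SD, n = 3), 6.83-fold. Within each library the level of Psmb10 divided by that of Psmb7, a quotient that no library scaling can move, was 0.0953 in the input and between 0.244 and 0.356 in the 9 immunopurified libraries, so the input lay below all of them. The other inducible subunits were near the detection limit. Psmb8, the counterpart of Psmb5 (chromosome 17, 34198195 to 34201454), had 36 counts in the input and 76, 60 and 117 in the saline libraries, ratios of 3.37 (95% counting interval 2.24 to 5.16), 2.17 (1.41 to 3.38) and 3.16 (2.16 to 4.73). Psmb9, the counterpart of Psmb6 (chromosome 17, 34182030 to 34187330), had 25 counts in the input and 35, 1 and 60 in the saline libraries, with ratios of 2.24 (1.30 to 3.90), 0.0521 (0.00127 to 0.318) and 2.33 (1.44 to 3.88). Saline library 2 thus went against the other two for Psmb9, and its quotient to Psmb6 spanned 0.000389 to 0.0321 over the 9 immunopurified libraries, on both sides of the 0.0150 of the input. Psmb11, a subunit of thymus epithelium, had 6 counts in the input and 1 in the 3 saline libraries together. Microglia are a known site of immunoproteasome genes in brain, and their 8 markers summed to 57.6 CPM in the input and to between 18.9 and 27.5 CPM in the saline libraries, with C1qa and C1qc listed at 0 in saline library 2. The part of other cell types in the levels of Psmb8, Psmb9 and Psmb10 was not tested.

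**Figure D2:**
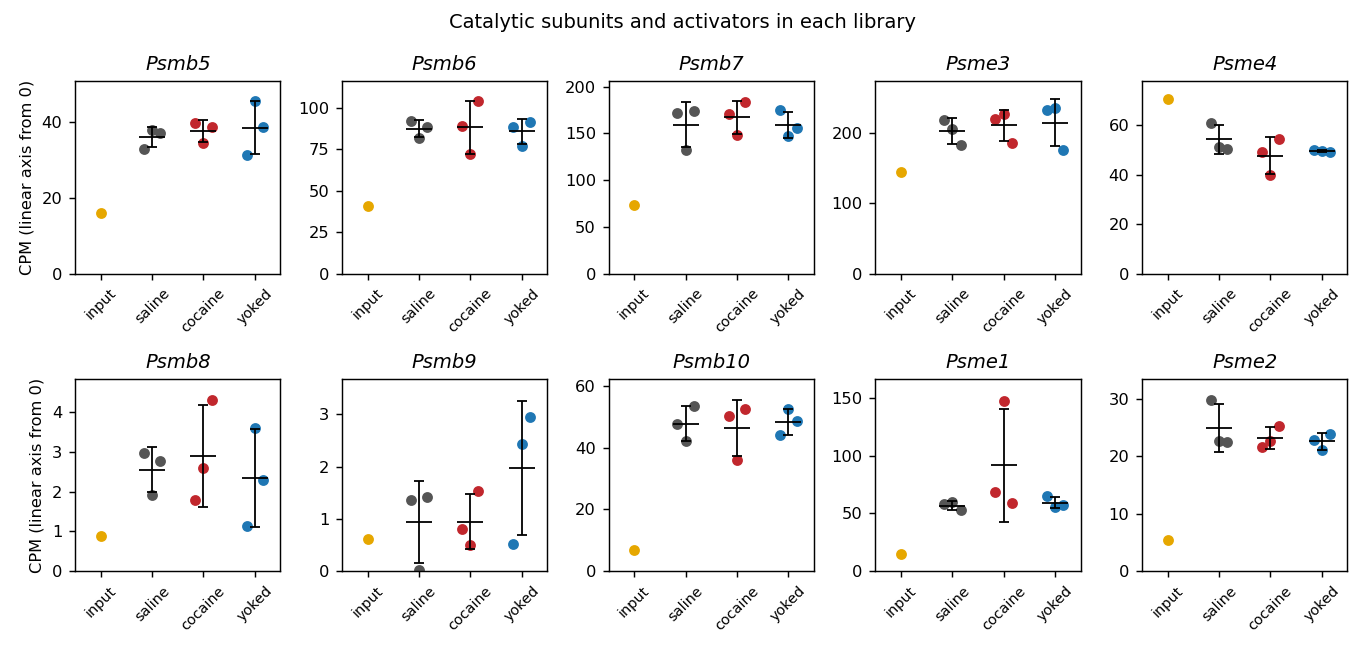
Level in CPM (linear axes from 0, scaled per gene) of the standard cutting subunits Psmb5, Psmb6 and Psmb7, the activators Psme3 and Psme4 and the inducible Psmb8, Psmb9, Psmb10, Psme1 and Psme2 in the input (1 library) and in 3 libraries each of the saline, cocaine and yoked groups; points are libraries and bars the mean ± SD. The input lies below every immunopurified library for Psmb5, Psmb6, Psmb7, Psmb8, Psmb10, Psme1, Psme2 and Psme3 and above all of them for Psme4, and Psme1 has 1 high point, 148 CPM in cocaine library 2.

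Shown are the 250 bases before the start site of the promoter entry for 2 of the 3 standard cutting subunits, Psmb5 and Psmb6. Those of Psmb10 and Psme1, from the inducible set, follow, to set the letters side by side. Psmb7 had no entry. The sequences are RefSeq's for GRCm38.p6 (the assembly of mm10), in the direction of the gene: chr14:54617996-54618245 on the minus strand for Psmb5, chr11:70525107-70525356 on the plus strand for Psmb6, chr8:105938393-105938642 on the minus strand for Psmb10 and chr14:55578244-55578493 on the plus strand for Psme1. Capitals mark matches to TGACNNNGC, the core of the antioxidant response element bound by Nfe2l1 and Nfe2l2.
Psmb5: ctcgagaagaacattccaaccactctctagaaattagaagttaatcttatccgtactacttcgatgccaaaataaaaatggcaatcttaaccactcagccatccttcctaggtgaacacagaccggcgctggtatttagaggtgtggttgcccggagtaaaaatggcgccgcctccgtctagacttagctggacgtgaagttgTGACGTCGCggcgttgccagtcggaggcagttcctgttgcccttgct
Psmb6: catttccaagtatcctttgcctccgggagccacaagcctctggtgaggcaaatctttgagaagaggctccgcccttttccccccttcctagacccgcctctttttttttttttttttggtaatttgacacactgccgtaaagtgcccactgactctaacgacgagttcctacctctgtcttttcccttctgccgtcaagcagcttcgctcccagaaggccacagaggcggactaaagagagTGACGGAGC
Psmb10: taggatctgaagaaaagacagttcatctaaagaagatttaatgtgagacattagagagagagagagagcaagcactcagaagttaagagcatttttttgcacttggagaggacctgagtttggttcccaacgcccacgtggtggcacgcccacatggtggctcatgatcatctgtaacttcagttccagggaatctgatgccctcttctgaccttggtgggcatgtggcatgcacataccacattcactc
Psme1: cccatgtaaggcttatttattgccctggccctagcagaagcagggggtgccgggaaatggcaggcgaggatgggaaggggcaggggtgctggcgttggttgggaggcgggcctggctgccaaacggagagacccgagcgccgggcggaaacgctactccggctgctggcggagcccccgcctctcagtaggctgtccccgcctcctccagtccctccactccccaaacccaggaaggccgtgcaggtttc
Psmb5 and Psmb6 each held 1 match, which ends 39 bases before the start of the entry in Psmb5 and directly before it in Psmb6. The gene model of Psmb6 begins at 70525324, inside its window, so that match lies within the model. Psmb10 and Psme1 held none. On both strands, 5 of the 44 windows that matched 41 of the 49 genes held this element, 11.4% beside 10.2% of all 32851 windows. The core of the interferon-stimulated response element, GAAA and GAAA with any 2 bases between, was in 3 of the 44 (6.82% beside 2.98% of all), and TTCNNNGAA, the gamma-activated site, in 2 (4.55% beside 7.02%). No 2 of these motifs overlapped in a member's window. Among the inducible genes, Psmb8 held the gamma-activated site and Psmb9, Psmb10, Psme1 and Psme2 held none of the 3 motifs. These matches describe letters in the windows and nothing about binding.

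The activators divided. Psme2 (chromosome 14, 55587440 to 55591101) measured 5.43 CPM in the input and 29.8, 22.6 and 22.4 CPM in the saline libraries (log2 ratio 2.19 ± 0.23, SD, n = 3), 4.55-fold. Psme1, its partner in the ring-shaped activator (chromosome 14, 55578494 to 55581527), measured 15.3 CPM and 57.9, 59.9 and 52.8 CPM (1.89 ± 0.094), 3.70-fold. The Psme2 copy Psme2b, with 18 counts in the input and 24, 34 and 53 in the saline libraries, was 2.47-fold higher, but reads of so close a copy are uncertain. Psme3, the nuclear activator, measured 144 CPM in the input and 219, 205 and 182 CPM in the saline libraries, 1.40-fold. Psme4, an activator linked to histone degradation, was the exception, at 70.5 CPM in the input and 61.0, 51.2 and 50.5 CPM in the saline libraries (log2 ratio −0.38 ± 0.15), and it was below the input in all 9 immunopurified libraries (39.7 to 61.0 CPM). Psmf1, a proteasome inhibitor, measured 24.0 CPM and 41.5, 47.4 and 45.3 CPM, 1.86-fold. Psme1 overlaps the gene model of Emc9 and Psme4 that of Erlec1, and 13 members in all overlap another gene model. The strand setting is not stated, so it is not known whether reads in an overlap were counted or left out as ambiguous.

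The cap genes lay closer to the input. Among the ATPases, all 6 were above the input in the 3 saline libraries. Psmc5 measured 138 CPM in the input and 250.5, 333 and 257 CPM (log2 ratio 1.01 ± 0.23, SD, n = 3), 2.01-fold and the highest of the cap. Psmc6 had 48.9 CPM and 82.2, 86.0 and 78.6 CPM, 1.68-fold, and Psmc1 65.0 CPM and 102, 110.3 and 101 CPM, 1.61-fold. Psmc3 had 30.9 CPM and 35.5, 39.8 and 35.1 CPM, 1.19-fold, Psmc2 63.9 CPM and 69.5, 90.9 and 76.0 CPM, 1.23-fold, and Psmc4 was 1.34-fold higher.

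Of the 11 non-ATPase cap genes, 9 were above the input in the 3 saline libraries. Psmd3 measured 41.2 CPM in the input and 70.4, 97.4 and 61.5 CPM (log2 ratio 0.86 ± 0.34, SD, n = 3). Psmd8 had 46.1 CPM and 87.5, 74.3 and 87.4 CPM, and Psmd4, a ubiquitin receptor of the cap, 36.2 CPM and 59.7, 79.2 and 56.4 CPM. These 3 were 1.78-fold to 1.82-fold higher. At the other end, Psmd14, the enzyme that cleaves ubiquitin chains from substrates at the cap, measured 59.5 CPM in the input and 69.8, 56.4 and 66.4 CPM, and Psmd11, a scaffold subunit, 40.1 CPM and 48.3, 54.1 and 38.0 CPM. Both had saline libraries on either side of the input. Psmd6 had 52.9 CPM and 73.3, 58.3 and 67.6 CPM, 1.25-fold. Psmd2 and Psmd12, scaffold subunits of the cap, had narrow spreads, with log2 ratios of 0.38 ± 0.054 and 0.42 ± 0.045.

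All 7 assembly genes were above the input in the 3 saline libraries, from 1.46-fold for Psmg1 to 2.12-fold for Psmg3, both chaperones of the core. Psmg3 measured 4.16 CPM in the input and 8.36, 7.89 and 10.4 CPM in the saline libraries. Psmd5, a chaperone of the cap base, had 45.9 CPM and 86.8, 97.2 and 83.6 CPM, 1.94-fold, and Psmd9, another of them, 13.0 CPM and 22.3, 19.2 and 16.9 CPM, 1.48-fold. Psmd10, known as gankyrin, had 21.6 CPM and 28.2, 52.3 and 31.4 CPM, 1.66-fold. Psmg2 had 8.02 CPM and 12.5, 23.5 and 10.8 CPM, and Psmg4 4.72 CPM and 10.2, 5.35 and 10.8 CPM, 1.83-fold and 1.78-fold. For Psmg2 and Psmd10 saline library 2 was the high one and for Psmg4 the low one.

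Partners outside the rule were read from a list of 47 symbols around the proteasome, of which 41 were in the tables and measured; the rest are mostly other names of listed genes. Their median log2 ratio was 0.42 ± 0.044 (SD of the library medians, n = 3). Of the 41, 27 were above the input in all 3 saline libraries, beside 35.8% of all genes measured. Below it in all 3 were 6, beside 44.9% of all genes. Uchl1, a neuronal ubiquitin hydrolase, measured 177 CPM in the input and 893, 853 and 904 CPM in the saline libraries, 4.98-fold. Pomp, the chaperone of core maturation, had 118 CPM and 368, 387 and 361 CPM, 3.15-fold, above every core gene but Psmb10. Shfm1, a small subunit of the cap, had 22.2 CPM and 63.9, 47.3 and 56.1 CPM. Txnl1, a thioredoxin-like protein bound to the cap, was 2.24-fold higher. Nfe2l1, the transcription factor that induces proteasome genes, had 284 CPM and 495, 526 and 541 CPM, 1.83-fold, and Adrm1, a ubiquitin receptor of the cap, 4.23 CPM and 4.92, 5.12 and 5.58 CPM, 1.23-fold. Among the lowest log2 ratios were those of Ubxn7 (−0.88 ± 0.14), Fbxo7 (−0.65 ± 0.38), Ubqln2 (−0.31 ± 0.032) and Faf1 (−0.28 ± 0.46).

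The order of core above cap held in each immunopurified library. The median log2 ratio to the input of the core genes exceeded that of the cap genes by 0.74, 0.72 and 0.77 in saline libraries 1 to 3, by 0.47, 0.18 and 0.78 in the cocaine libraries and by 0.58, 0.60 and 0.63 in the yoked libraries. A difference inside a library does not depend on how libraries are scaled. All 9 differences share the same 1 input library, so they are not independent of each other. The summed CPM of core genes divided by that of cap genes, which also depends on transcript lengths and is read here only between libraries, was 0.619 in the input, 0.711 in cocaine library 2 and between 0.895 and 0.963 in the other 8. Cocaine library 2 was the lowest of the 9 for 9 of the 17 measured core genes and the highest for none, and the lowest for 2 and the highest for 2 of the 17 cap genes. Over the 13820 genes with a mean of at least 20 counts, this library was the lowest of the 9 for 25.4% and the highest for 20.3%.

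**Figure D3:**
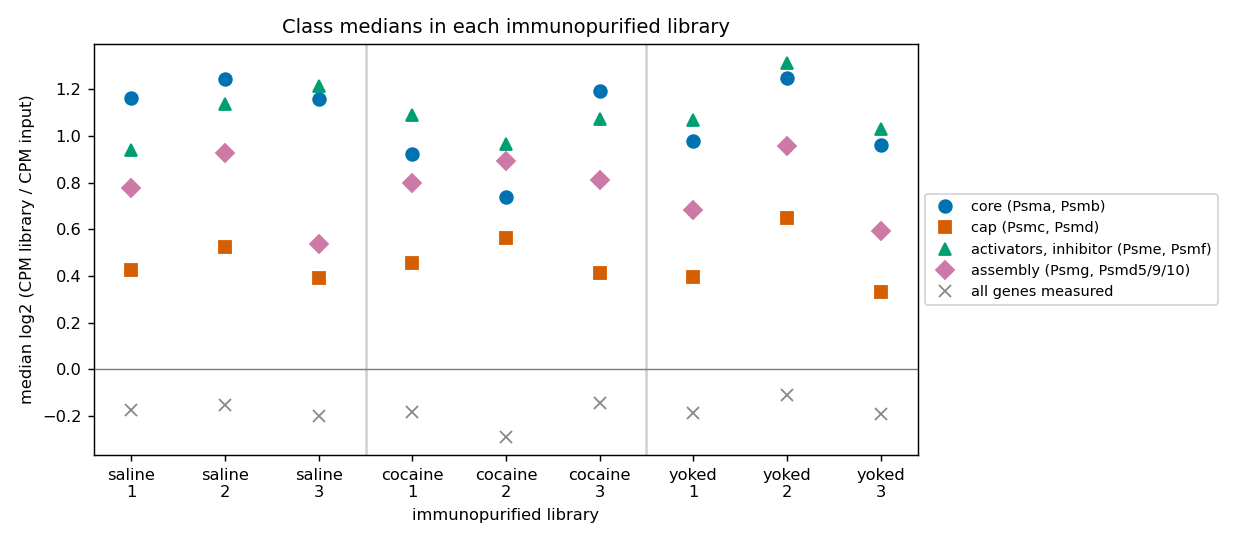
Median log2 ratio of CPM to the 1 input library for each class of proteasome genes and for all genes measured, in each of the 9 immunopurified libraries (horizontal axis: group and replicate number). The core median lies above the cap median in all 9, by 0.18 in cocaine library 2 and by 0.47 to 0.78 in the others, and all genes measured lie below 0.

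Between treatment groups no proteasome gene passed. Of 14989 genes tested, 47 were proteasome genes, and edgeR's quasi-likelihood test called 0 of them and 0% of all genes in each of the 3 comparisons and in the test for any difference among the groups. The smallest Benjamini-Hochberg adjusted p of a proteasome gene was 0.850 (cocaine against saline), and it was at least 0.999 in the others. At an unadjusted p under 0.05 stood 3 of 47 (all genes 5.28%), 1 of 47 (2.61%) and 0 of 47 (2.18%), in the order cocaine against saline, cocaine against yoked, yoked against saline, and 1 of 47 (2.8%) for any difference. DESeq2 and limma voom on the same genes also called 0 in each. For the typical member the unadjusted 95% interval extended 0.39 either way in log2 units. On simulated counts for cocaine against saline with 14989 genes, the adjusted test called 52% of 2-fold and 94% of 4-fold changes. The changed genes were drawn from all but the low-level genes, and for the typical gene tested the interval extended 0.64 either way. These shares are therefore not rates for the members. A 2-fold change of a member could be missed, and how often was not tested.

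The first comparison set cocaine against saline self-administration. Of the 47 genes, 20 had a higher and 27 a lower estimate after cocaine, with a median log2 fold change of −0.037 beside 0.0049 over all genes tested. Leaving out 1 library moved that median between −0.055 (without saline library 1) and −0.011 (without saline library 3). The 17 core genes had 13 lower estimates and a median of −0.15, and the 17 cap genes 6 lower estimates and a median of 0.016. Without cocaine library 2 the core median was −0.053 with 10 lower, and without the 3 libraries numbered replicate 2 it was −0.018. Without cocaine library 2 the cap median was −0.054, so the gap between the classes was absent there. In the alpha ring, estimates were lower for 7 of 7 genes (6 of 7 with RLE scaling, DESeq2 or limma voom), with a median of −0.42, which was −0.25 without saline library 2 and −0.22 without the 3 libraries numbered replicate 2. Of all 14989 genes tested, 7407 had a lower estimate after cocaine. Yoked against saline, which shares the saline libraries, also had 7 of 7 alpha ring genes lower (median −0.12). Cocaine against yoked had 6 of 7 lower (median −0.32), and 4 of 7 without the 3 libraries numbered replicate 2 (median −0.015). The 8 spiny neuron markers other than Drd2 summed to 1407, 639 and 587 CPM in the saline libraries and 1275, 608 and 1012 CPM in the cocaine libraries, so the groups overlapped. Drd2 measured 915, 1013 and 1129 CPM against 1039, 2429.6 and 1213 CPM, highest in cocaine library 2. After cocaine, estimates were higher for 8 of 9 spiny neuron and 6 of 7 oligodendrocyte markers (medians 0.32 and 0.36). They were higher for 5 of 7 astrocyte, 3 of 7 microglia, 4 of 4 endothelial and 2 of 9 cholinergic markers tested. No marker passed, and the part of other cell types in the proteasome estimates was not tested. Genes without overlap between groups, here and in the other comparisons, were counted on CPM after TMM scaling. Groups did not overlap in 4 of the 47 genes, all lower after cocaine (beside 5.6% of all genes tested), and in none toward higher levels (4.86% of all genes).

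The members named here had the smallest p or groups that did not overlap, and none passed (adjusted p = 0.850 or 0.853, edgeR with Benjamini-Hochberg adjustment). Psma6 measured 105, 187 and 108 CPM in saline libraries 1 to 3 and 85.1, 83.0 and 98.9 CPM in the cocaine libraries. All cocaine libraries lay below all saline libraries, and the log2 fold change of −0.56 ± 0.22 (SE) was −0.25 without saline library 2. Psma5 measured 44.3, 49.6 and 41.5 CPM after saline and 32.4, 28.8 and 38.9 CPM after cocaine (−0.42 ± 0.22), again without overlap. Psma3 had 8.59, 8.56 and 9.43 CPM against 7.01, 4.03 and 7.70 CPM (−0.50 ± 0.32), which was −0.27 without cocaine library 2. Psma2 had 165, 200.2 and 160.5 CPM against 160.2, 130.4 and 142 CPM, with groups that nearly met (−0.27 ± 0.17, and −0.17 without saline library 2). Psma1, with 75.2, 81.9 and 63.2 CPM against 49.7, 45.3 and 66.5 CPM, overlapped (−0.44 ± 0.20).

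Psme1 went the other way through 1 library. It measured 57.9, 59.9 and 52.8 CPM after saline and 68.4, 148 and 59.0 CPM after cocaine. In yoked animals it had 64.9, 55.8 and 57.0 CPM. Cocaine library 2, with 11111 counts, stood far above the other 8 immunopurified libraries, which ranged from 52.8 to 68.4 CPM. The log2 fold change against saline was 0.73 ± 0.29 (SE) with all libraries and 0.17 without cocaine library 2 (adjusted p = 0.850 and 0.998, edgeR with Benjamini-Hochberg adjustment). Emc9, whose gene model overlaps Psme1, was at 25.4 CPM in cocaine library 2, below its 29.8 to 40.8 CPM in the other 8. Without a filter on low counts, a setting under which 98 of 22641 genes (0.433%) were called, Psme1 passed the test for any difference among the groups (adjusted p = 0.0322, edgeR with Benjamini-Hochberg adjustment), and no member passed a comparison of 2 groups there. Its partner Psme2 measured 29.8, 22.6 and 22.4 CPM after saline and 21.5, 22.6 and 25.3 CPM after cocaine, with groups that overlapped.

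**Figure D4:**
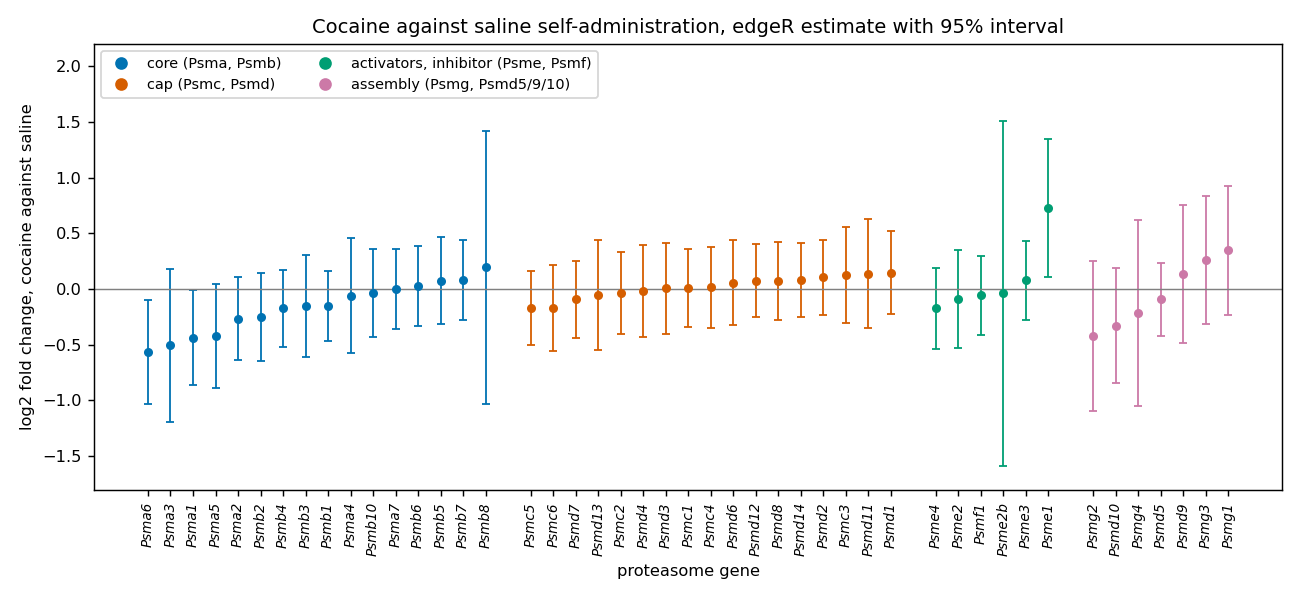
Log2 fold change of cocaine against saline self-administration for 46 of the 47 tested proteasome genes by class, as edgeR estimates with 95% intervals; Psmb9 is left out for the width of its interval. The 5 lowest core estimates belong to alpha ring genes, cap genes lie close to 0 (median 0.016), and Psme1 at 0.73 rests on cocaine library 2.

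Cocaine self-administration against yoked controls, libraries of the same lane, gave a median of 0.0099 over the 47 genes beside 0.0011 over all genes tested, with 25 higher and 22 lower estimates. Leaving out 1 library moved that median between −0.027 (without yoked library 3) and 0.0039 (without yoked library 2), and it was below 0 when yoked library 1 or any 1 cocaine library was left out. Psme1 had the smallest p (log2 fold change 0.68 ± 0.29, SE, and 0.11 without cocaine library 2; adjusted p = 0.99975, edgeR with Benjamini-Hochberg adjustment). Psma5 measured 32.4, 28.8 and 38.9 CPM after cocaine and 37.3, 62.4 and 33.4 CPM in yoked animals, Psma1 49.7, 45.3 and 66.5 against 56.1, 90.0 and 60.6 CPM and Psma6 85.1, 83.0 and 98.9 against 109.6, 141 and 91.9 CPM. In these 3 genes yoked library 2 was the highest and the groups overlapped. Psmd12, a cap scaffold subunit, had 145, 151 and 131 CPM against 134, 117 and 117 CPM (log2 fold change 0.25, 95% interval −0.080 to 0.58). Groups failed to overlap in 1 of 47 genes, Psme2b, at 1.06, 1.02 and 1.09 CPM after cocaine and 1.16, 1.32 and 1.09 CPM in yoked animals, beside 3.47% of all genes toward lower and 3.52% toward higher levels.

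Yoked controls against saline self-administration gave a median of −0.067 over the 47 genes beside −0.014 over all genes, with 16 higher and 31 lower estimates, of which 15 were among the 17 core genes. Without saline library 2 the median was −0.013, with 23 higher and 24 lower, 11 of them core genes. Without yoked library 1 or yoked library 3 it was −0.034 or −0.033, and 10 or 13 core genes were lower. This comparison shares its saline libraries with that of cocaine against saline. Estimates were higher in yoked animals for 8 of 9 spiny neuron and 7 of 7 oligodendrocyte markers (medians 0.20 and 0.47). They were higher for 4 of 7 astrocyte, 3 of 7 microglia, 3 of 4 endothelial and 5 of 9 cholinergic markers tested. No marker passed. The smallest p belonged to Psmd7 (log2 fold change −0.21, 95% interval −0.56 to 0.13), Psmc5 (−0.20, −0.53 to 0.13), Psmb2 (−0.23, −0.62 to 0.16), Psmc2 (−0.21, −0.58 to 0.17) and Psmd12 (−0.18, −0.50 to 0.15), with adjusted p = 0.999 for each in edgeR with Benjamini-Hochberg adjustment. Psmb2 measured 178, 194 and 158.1 CPM after saline and 158, 160.4 and 138 CPM in yoked animals, so these CPM overlapped. After TMM scaling it was the 1 member whose groups did not overlap (beside 3.31% of all genes toward lower and 3.97% toward higher levels).

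Psmb10 ranged from 36.1 CPM in cocaine library 2 to 53.5 CPM over the 9 libraries, with a coefficient of variation of 12.1%. It was at 47.8 ± 5.66 CPM (SD, n = 3) after saline self-administration, 46.4 ± 8.92 CPM after cocaine self-administration and 48.4 ± 4.23 CPM in the yoked group. Psmb8 ranged from 1.13 to 4.31 CPM and Psmb9 from 0.0318 to 2.95 CPM over the 9 libraries, with coefficients of variation of 37.2% and 73.5%. Among partners, 0 of 41 passed in any comparison of 2 groups (edgeR with Benjamini-Hochberg adjustment), beside 0% of all genes tested. At an unadjusted p under 0.05 stood 1, 1 and 0 of 41 for cocaine against saline, cocaine against yoked and yoked against saline. The shares of all genes tested were 5.28%, 2.61% and 2.18%. The 3 smallest p belonged to Ubqln1, Usp14 and Fam192a for cocaine against saline, to Zfand2a, Ube3c and Midn for cocaine against yoked, and to Faf1, Pomp and Ubqln1 for yoked against saline. Ubqln1, a shuttle that brings ubiquitinated proteins to the proteasome, had the smallest p for cocaine against saline, at 220.4, 233 and 189 CPM after saline and 198, 124 and 159.6 CPM after cocaine. Zfand2a, a stress-induced proteasome-binding protein, had it for cocaine against yoked, at 157, 297 and 144 CPM after cocaine and 130.3, 158 and 141 CPM in yoked animals, where cocaine library 2 again was the high one.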

How the data were processed

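Each library has 1 deposited table of unnormalised read counts by gene symbol. The submitters' processing notes name STAR 2.0.0e, HTSeq and the build mm10. Annotation, strand setting and filters are not given in the sources used here. Per the file rows, reads aligned to more than 1 place were counted apart, which lowers the counts of genes with close copies; such reads and others given to no gene (no feature, ambiguous) were left out. CPM is the count scaled to 1000000 gene counts.

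For the comparison with the input, the CPM of each saline library was divided by that of the input and put on the log2 scale, for genes with at least 20 counts in the input or the mean saline library. Medians over genes were taken on each gene's mean log2 ratio, and the SD beside them on the medians of the single libraries. Groups were compared in R 4.3.3 with edgeR 4.0.16 (quasi-likelihood, robust, TMM scaling, minimum count 10, minimum total 15), with 9 libraries in 1 fit and 6 residual degrees of freedom. Calls needed an adjusted p (over all genes tested) under 0.05. DESeq2 1.42.0 and limma 3.58.1 were alternatives, beside other scalings, no filter, a replicate block and leaving out libraries. The edgeR steps were tested on simulated data. Counting intervals are exact, at the 95% level, and cover counting error only, since reads carry no molecular identifiers.

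The genes, lists and classes were chosen with earlier results of these data known. Named members are, per class, up to 3 with the highest and 3 with the lowest ratio, those 2-fold from the input in all 3 libraries, the cutting subunits with their counterparts and, between groups, the 5 smallest p and up to 10 without overlap. Of the partners, up to 5 at each end of the ratios, Nfe2l1, Pomp and Adrm1 are named, and some results that the rule would name are not reported here. Positions come from the RefSeq table of GRCm38.p6, in which all 49 symbols were found. Levels of different genes were not compared, for want of transcript lengths.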

Additional observations from a re-analysis of the deposited data

How the results depend on the processing

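The count of proteasome genes called stayed at 0 in each comparison of 2 groups under RLE scaling, no filter, DESeq2, limma voom, the replicate block and each left-out library, including the fit without the 3 libraries numbered replicate 2, which was added after the data were seen. In the test for any difference it was 1 without a filter (Psme1), where 98 of 22641 genes were called, and 0 in the other fits. Over all genes the unfiltered fit called 60 (cocaine against saline), 27 (cocaine against yoked) and 18 (yoked against saline), where the filtered fit called 0. With the replicate block it was 0 in all 4 tests. Same-numbered libraries correlated at 0.0776 to 0.177 in their deviations from the group means, and in 18 of 18 cases a library correlated best with its own number in another group, a hint from the data only, so the numbers were not taken as pairs. TMM scaling against the input gave median log2 ratios of 0.93 for all members, 1.20 for core and 0.51 for cap. Centring on all genes gave 1.02, 1.29 and 0.60, with 1.27 for activators and inhibitors and 19 members at least 2-fold above the input. Over all 9 immunopurified libraries the median of all members was 0.71 and 4 were at least 2-fold above in each. The counts of 19 and 4 have no share of all genes beside them, which was not counted. With a minimum of 100 counts, which leaves out Psme2b, the activator median was 0.89. Leaving out 1 saline library moved the assembly median between 0.58 and 0.91. The cause of these shifts was not tested. Psmb8, Psmb9, Psma8 and Psmb11 are limited by depth.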
